A study of Bos taurus with 56 samples.

Results

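The 10 genes described here are those with the most counts in the Longissimus dorsi, a long back muscle, of Nguni and Bonsmara bulls. They were chosen by summing the counts of each of the 20791 listed genes over all 42 RNA libraries and taking the 10 highest sums. Bonsmara bulls on the high energy diet (12.0 MJ of metabolizable energy per kg) gave 3 title stems, and those on the low energy diet (10.9 MJ per kg) gave 3. Nguni bulls gave 5 stems on the high energy diet and 3 on the low energy diet. Nguni is labelled a Sanga breed and Bonsmara a Sanga-related breed, and all bulls were fed in a feedlot for 120 days. A stem is the shared start of a sample title (B6 in B6_1) and has 3 libraries. It is read here as 1 animal, which the labels do not state, so n counts stems. Should stems not be animals, a p-value reflects the spread between samples alone, and that spread may be technical.

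Skeletal muscle is known for a very uneven transcript pool. Its fibres are packed with contractile filaments and with enzymes that supply them with ATP, and the messages for these proteins, together with transcripts of the mitochondrial genome, usually lead the list of abundant RNAs. The files identify genes by versioned Ensembl bovine IDs and do not pair them with names, so none of the 10 is assigned to these classes or given a function here. For the same reason the labelled tissue could not be checked against muscle markers, and no sequence is shown. In bulk muscle, fewer cells of a type and less RNA per cell cannot be told apart.

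Libraries held 8156040 to 78224599 counts and stems 34456677 to 101757197. In B6, a Bonsmara stem on high energy, 1 library (B6_1) held 76.9% of the counts. The labels and the deposited tables disagree on 2 Nguni stems. N1 has a low energy label, yet the tables place it among the high energy stems, and N11 is the reverse. The labels were followed, and values with the tables' pairing are given where they differ. Libraries N008_3 and N215_2, which stood apart in an earlier analysis of these data, were left out as an alternative.

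Together the 10 genes took 35.3% of all counts. ENSBTAG00000043561.1 alone took 11.4% and was the first gene in 38 of the 42 libraries and in all 14 stems. ENSBTAG00000043560.1 followed with 3.96% and ENSBTAG00000046332.1 with 3.87%. The next 7 lay close together, from 2.79% for ENSBTAG00000043584.1 through ENSBTAG00000043550.1 (2.41%), ENSBTAG00000043577.1 (2.27%), ENSBTAG00000018204.4 (2.21%), ENSBTAG00000043558.1 (2.15%) and ENSBTAG00000011424.5 (2.13%) to 2.11% for ENSBTAG00000022158.4. These are shares of counts and not levels per transcript length, which the files do not give, so their order is not an order of transcript numbers.

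The lower edge of the set was not sharp. The 10th gene, ENSBTAG00000022158.4, had 13727545 counts, and the 11th, ENSBTAG00000043556.1, had 13431669, so that the sum just inside was 2.20% above the sum just outside. The 10 genes were the own top 10 of 0 of 42 libraries and 0 of 14 stems, and between them the libraries had 23 different genes in their top 10. ENSBTAG00000043561.1, ENSBTAG00000043560.1, ENSBTAG00000046332.1 and ENSBTAG00000011424.5 were in the top 10 of all 14 stems, whereas ENSBTAG00000043558.1 was in that of 5. Raw sums give deep libraries more weight. With the mean or the median share over libraries in place of the sum, 9 of the 10 genes were the same, and ENSBTAG00000012927.4 took the place of ENSBTAG00000043558.1. Without N008_3 and N215_2 the 11th gene took the place of ENSBTAG00000022158.4.

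Of these 10 genes, 6 had ID numbers from 43550 to 43584: ENSBTAG00000043561.1, ENSBTAG00000043560.1, ENSBTAG00000043584.1, ENSBTAG00000043550.1, ENSBTAG00000043577.1 and ENSBTAG00000043558.1. This was noticed after the values were seen, so the split into these 6 and the other 4 is a description. The range holds 15 listed IDs, of which 8 were among the 20 genes with the highest sums and 10 among the first 50, and the 15 took 30.2% of all counts. The range was drawn around the 6, which were chosen for their sums, so they enter these figures by choice. Of the 9 other IDs in it, ENSBTAG00000043556.1 ranked 11, ENSBTAG00000043568.1 19, ENSBTAG00000043571.1 23 and ENSBTAG00000043563.1 26. The remaining ones ranked 72 or lower in the list. The 6 genes with close IDs took 24.98% of all counts, and the other 4 (ENSBTAG00000046332.1, ENSBTAG00000018204.4, ENSBTAG00000011424.5 and ENSBTAG00000022158.4) took 10.3%. ID version 1 was carried by 7 of the 10, against 13.4% of all listed IDs.

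**Figure D1:**
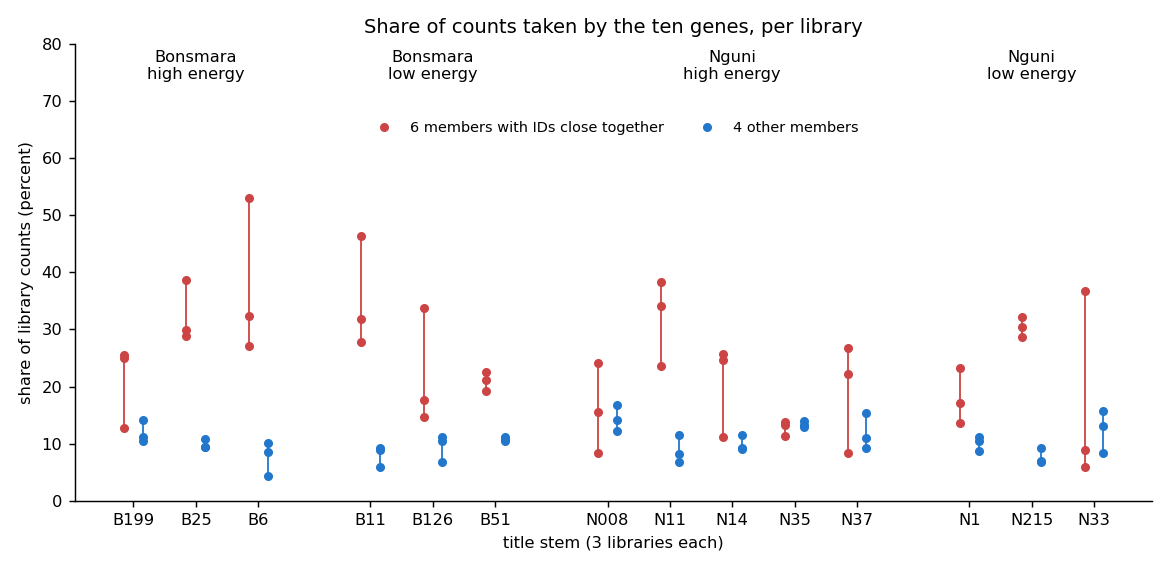
Share of each library's counts (percent, vertical axis) taken by the 6 genes with close IDs (red) and by the other 4 (blue), with 1 point per library, lines joining the 3 libraries of a stem, and stems ordered by group. The red points run from 5.88% to 53.1% and the blue points from 4.27% to 16.7%, and the 3 red points of stem N33 span 6.24-fold.

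The share of the 6 genes with close IDs ranged from 5.88% of the counts in N33_3 over a median of 24.4% to 53.1% in B6_3. The share of the other 4 ranged from 4.27% in B6_3 over a median of 10.4% to 16.7% in N008_3. B6_3 was thus the library with the highest share of the 6 and the lowest share of the 4. In 7 of 42 libraries the 6 together took less than the 4. Over libraries the ratio of the summed shares ran from 0.374 to 12.4. Over stems it ran from 0.998 in N35, the only stem in which the 6 took less than the 4, to 4.55 in B11.

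Libraries of 1 stem varied widely for the 6 genes with close IDs, whose share over stems ran from 13.2% in N35 to 36.0% in B11. The share of the 6 genes differed over 2-fold between libraries of the same stem in 6 of 14 stems, and the share of the other 4 in 1, which was B6 at 2.39-fold. In N33, a Nguni stem on low energy, the 6 took 8.98%, 36.7% and 5.88% of the counts of its 3 libraries. The 3 libraries of N215, from the same group, lay within 1.12-fold, at 28.7% to 32.2%. ENSBTAG00000043561.1 by itself went from 3.08% in N33_3 to 24.0% in B6_3. ENSBTAG00000011424.5 had the narrowest range of the 10, from 1.13% to 3.39%. Counts of a member in a library were 39736 to 10608800, and counting error alone gives a coefficient of variation of at most 0.502%, so counting error is small beside these differences.

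Variance components of log2 CPM (counts divided by a library total that TMM has adjusted) put numbers on this. For the 6 genes with close IDs the SD between libraries of a stem was 0.71 to 0.82, and the SD between stems was 0.42 to 0.61. For the other 4 the SD within stems was 0.27 to 0.34 and the SD between stems 0.21 to 0.43. The part of the variance that lay between stems was 20.96% to 42.2% for the 6, and 37.9% to 61.2% for the 4. Only ENSBTAG00000022158.4 (61.2%) and ENSBTAG00000018204.4 (59.8%) had more variance between stems than within them, that is 2 of 10 genes, beside 39.2% of the 13219 genes tested. Without N008_3 and N215_2, ENSBTAG00000011424.5 went from 46.6% to 55.3%.

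**Figure D2:**
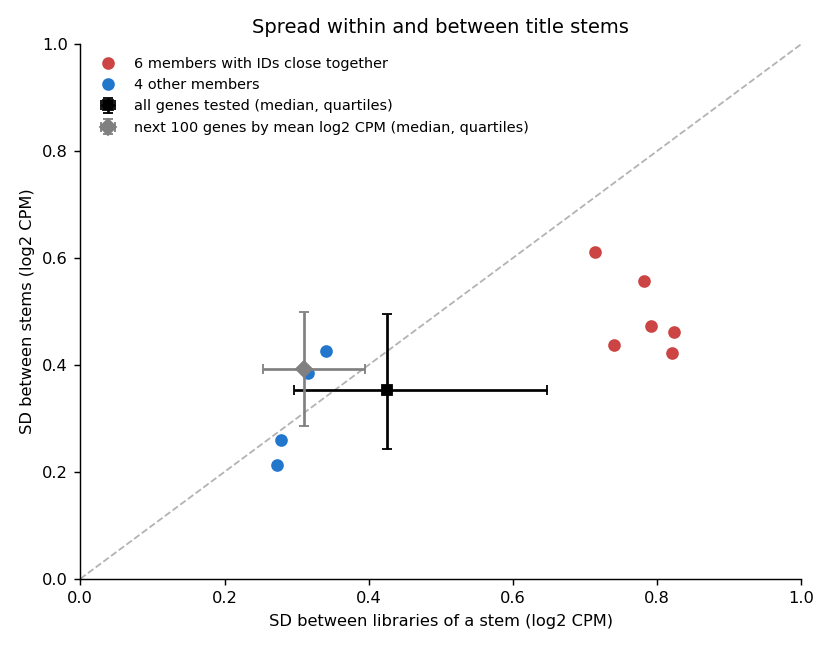
SD between stems (vertical) against SD between libraries of a stem (horizontal), both of log2 CPM, for the 6 genes with close IDs (red), the other 4 (blue), and the median and quartiles of all 13219 genes tested (black) and of the next 100 genes by mean log2 CPM (grey). The red points lie at 0.71 to 0.82 on the horizontal axis, below the dashed line of equal SDs, and the blue points at 0.27 to 0.34.

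Set beside other genes, the 6 had a larger SD within stems than the median gene tested, which had 0.43 within and 0.35 between stems. The 100 genes that come next in mean log2 CPM had medians of 0.31 within and 0.39 between, with 68 of the 100 above 50% between stems. These figures describe the sets and were not tested.

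The 6 genes with close IDs moved together from stem to stem. To keep a rise of 1 gene from lowering the others through the shared total, each gene was taken as the log2 ratio of its counts to the counts of all genes outside the 10, which all genes of a stem share as denominator. Of the 45 pairs among the 10 genes, 15 had a Benjamini-Hochberg adjusted p under 0.05 over 14 stems, and they were the 15 pairs within the 6. Pearson's r of these pairs was 0.94 to 0.99 (permutation p 1e-05 to 2e-05, two-sided, where 1e-05 is the smallest that 100000 resamples can give; adjusted p 3.21e-05 to 6e-05). Spearman's rho was 0.84 to 0.99, with adjusted permutation p up to 0.00096. Leaving out the 2 stems farthest from the median gave r of 0.92 to 0.99. The median was that of the gene with the higher sum in a pair, so the stems left out differ between pairs.

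The same pairs kept this relation inside the study's groups. With the group means removed, r within the 6 was 0.94 to 0.98. It was 0.91 to 0.99 over the 8 Nguni stems and 0.936 to 0.996 over the 6 Bonsmara stems. Between libraries of the same stem it was 0.952 to 0.996. The log2 ratio of 1 of these genes to another had an SD over stems of 0.11 to 0.26, and the widest range was that of ENSBTAG00000043560.1 to ENSBTAG00000043577.1, from 0.45 to 1.35. Among all 87364371 pairs of genes tested, the median r of log2 CPM was -0.002, and 0.0177% reached the lowest value within the 6, which was 0.946 on that scale.

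**Figure D3:**
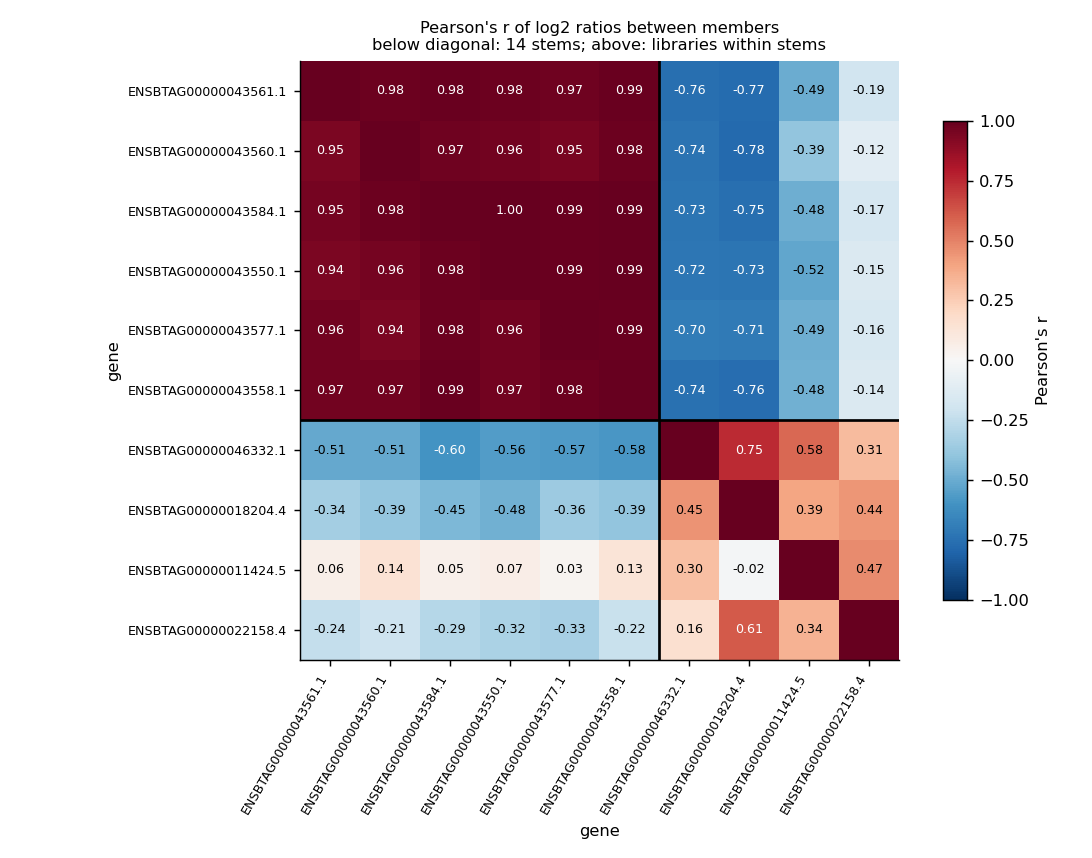
Pearson's r between the 10 genes, as log2 ratios to the counts outside the 10, over 14 stems (below the diagonal) and over libraries within stems (above it), with the 6 genes with close IDs first. The upper left block is dark red, at 0.94 or higher on both sides of the diagonal. ENSBTAG00000046332.1 is blue against the 6 on both sides. Above the diagonal ENSBTAG00000018204.4 is as blue, at -0.78 to -0.71.

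Among the 6 pairs of the other 4 genes r was -0.02 to 0.61, and 0 of 6 passed after adjustment. This depended on the scale, since on log2 CPM their r was 0.32 to 0.72 and 3 of 6 passed. The highest was ENSBTAG00000018204.4 with ENSBTAG00000022158.4 (r = 0.61, rho = 0.52, permutation p 0.0191 and 0.0597, adjusted p for r 0.0538), and without the 2 farthest stems, N008 and B199, its r was 0.37. Of the 24 pairs of 1 gene from the 6 and 1 from the 4, 0 passed, with r from -0.60 to 0.14, and without stem B25 6 of them passed. Some of these pairs had opposite signs by breed. With the 6, ENSBTAG00000011424.5 had r of 0.70 to 0.88 over the 6 Bonsmara stems and -0.44 to -0.31 over the 8 Nguni stems. ENSBTAG00000022158.4 had 0.45 to 0.65 in Bonsmara and -0.49 to -0.19 in Nguni. ENSBTAG00000046332.1 and ENSBTAG00000018204.4 were below 0 in both breeds. The difference between breeds was not tested. Over all 14 stems ENSBTAG00000046332.1 had r of -0.60 to -0.51 with each of the 6, and -0.88 to -0.79 once the group means were removed. Without the 2 farthest stems its r was -0.69 with ENSBTAG00000043560.1 (N11 and B25 left out) and -0.27 with ENSBTAG00000043561.1 (B11 and N35 left out). With the rest of the 6 it was -0.42 to -0.29 (N215 and N35 left out). Different stems were left out, so these values do not compare the genes. On log2 CPM the r of ENSBTAG00000046332.1 with the 6 was -0.31 to -0.16. With group means removed 22 pairs had an adjusted p under 0.05, although that permutation does not account for the fitted means. Between libraries of the same stem, ENSBTAG00000046332.1 had r of -0.76 to -0.70 with the 6, and ENSBTAG00000018204.4 had -0.78 to -0.71. On that measure ENSBTAG00000011424.5 had -0.52 to -0.39 and ENSBTAG00000022158.4 had -0.19 to -0.12.

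A single axis, made up mainly of the 6 genes with close IDs, therefore carried most of the summed variance of the 10 genes. The log2 ratios were centred and not scaled, so genes with a larger spread count for more. The first principal component of their log2 ratios held 86.1% of the variance over stems and 94.3% of that between libraries within stems. The 6 genes had weights of 0.36 to 0.46 on it over stems, and the other 4 had weights of -0.11 to 0.01. The second component held 7.33% over stems, and its largest weights were those of ENSBTAG00000018204.4 (0.71) and ENSBTAG00000022158.4 (0.65).

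Genes outside the 10 were compared by r of log2 CPM over the 14 stems. ENSBTAG00000043556.1, the gene just outside the set and within the same ID range, was the most like ENSBTAG00000043561.1 (r = 0.99), ENSBTAG00000043558.1 (r = 0.97) and ENSBTAG00000043560.1 (r = 0.96). ENSBTAG00000043568.1, also in that range, was the most like ENSBTAG00000043584.1 (r = 0.97). ENSBTAG00000043546.1, outside that range, was the most like ENSBTAG00000043577.1 (r = 0.97) and ENSBTAG00000043550.1 (r = 0.96). These values are descriptions picked as the highest over all genes tested.

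By breed and diet, the joint share of the 10 genes was 39.6% ± 5.08 (SD, n = 3) in Bonsmara on high energy, with B199 at 33.8%, B25 at 43.0% and B6 at 42.1%. In Bonsmara on low energy it was 35.5% ± 7.28 (SD, n = 3), with B11 at 43.9%, B126 at 31.03% and B51 at 31.6%. Nguni on high energy had 31.6% ± 5.26 (SD, n = 5), with N008 at 30.0%, N11 at 40.4%, N14 at 29.6%, N35 at 26.5% and N37 at 31.4%. Stems of the same group thus differed by up to 13.9 percentage points. In Nguni on low energy the share was 32.8% ± 5.08 (SD, n = 3), with N1 at 28.1%, N215 at 38.2% and N33 at 32.1%. Every group overlapped with each of the others. With N1 and N11 placed as in the tables it was 29.1% in Nguni on high energy and 36.9% in Nguni on low energy.

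The 6 genes with close IDs and the other 4 were ordered differently by group. The 6 took 29.6% ± 6.59 (SD, n = 3) in Bonsmara on high energy, 26.03% ± 8.63 (SD, n = 3) in Bonsmara on low energy, 19.8% ± 6.997 (SD, n = 5) in Nguni on high energy and 22.8% ± 6.54 (SD, n = 3) in Nguni on low energy. The other 4 took 10.01% ± 1.73, 9.48% ± 1.46, 11.7% ± 2.24 and 9.93% ± 1.93 in the same order. The largest difference, for the 6 between the breeds on high energy, was between ranges that overlap, 22.02% to 33.9% in Bonsmara and 13.2% to 31.4% in Nguni. No test of these sums was made, because the genes were picked for their totals.

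**Figure D4:**
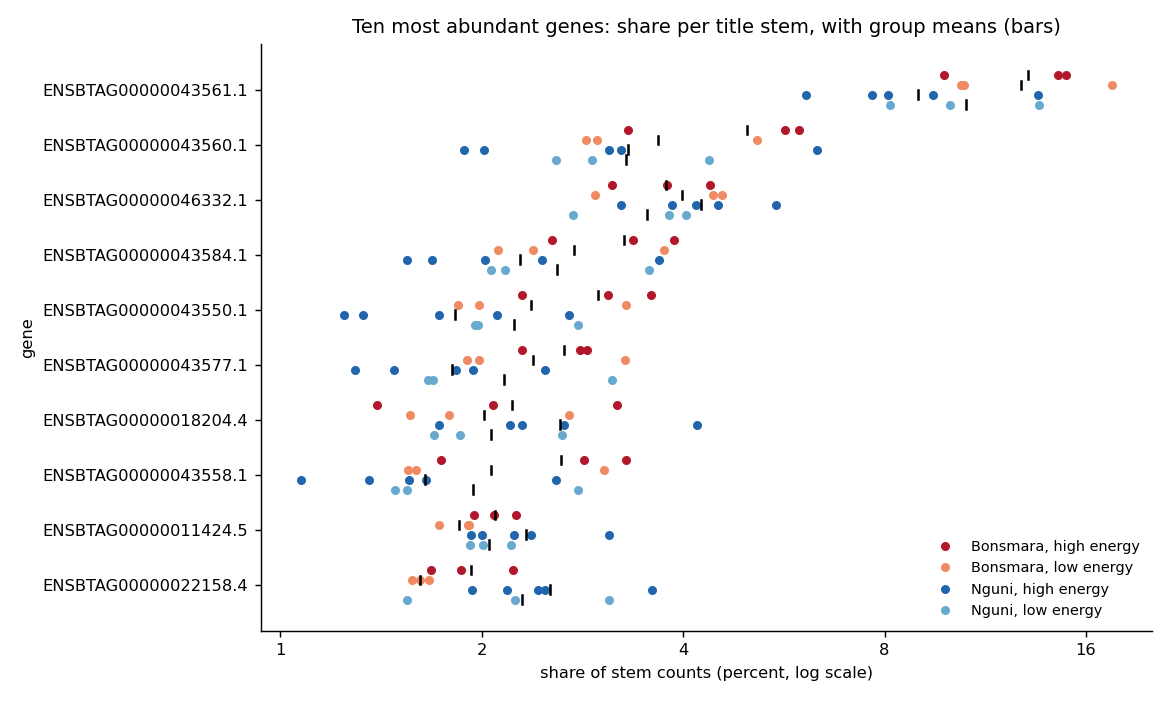
Share of a stem's counts (percent, log scale, horizontal) for each of the 10 genes, with 1 point per stem, colours for the 4 groups and a black bar at each group mean. ENSBTAG00000043561.1 lies at 6.10% to 17.5% and is the highest gene within each stem. ENSBTAG00000043560.1 reaches 6.33% in N11, and the groups overlap for most genes.

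Single genes were tested with edgeR's quasi-likelihood fit over all 13219 genes, on counts summed per stem. The 7 comparisons were between diets within a breed (2), between breeds within a diet (2), the interaction of the 2 factors, and each factor averaged over the other (2). In each of them 0 of the 10 genes had an adjusted p under 0.05, and so had 0 of all genes tested (0%). At an unadjusted p under 0.05 the count was 1 of 10 for breed on the high energy diet, beside 8.73% of all genes. In the other 6 comparisons it was 0 of 10. The share of all genes was 3.84% between diets in Bonsmara and 3.03% in Nguni, 3.62% between breeds on low energy, 4.18% for the interaction, 3.28% for diet averaged and 8.65% for breed averaged. DESeq2 also called 0 of the 10 in all 7 comparisons, beside 0.0112% of all genes between diets in Bonsmara, 0.18% between breeds on high energy, 0.08% for breed averaged, 0% for the interaction and 0.00561% in each of the other 3. With limma and quality weights it was 0 of the 10 in all 7, beside 0.0151% of all genes for breed averaged and 0% in the other 6. The 6 genes with close IDs moved together (r of 0.94 to 0.99 over stems), so the 10 are not separate observations. A count of the 10 set beside a share of all genes is thus a description, and no enrichment was tested. A p above the threshold does not show that levels were equal. The standard errors below give the precision of an estimate, and differences larger than a standard error could also go uncalled. For breed on high energy, ENSBTAG00000043550.1 was not called at a log2 fold change of -0.86 with an SE of 0.39.

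Between diets in Bonsmara, the estimates for all 10 genes were above 0, with log2 fold changes (high minus low energy) of 0.14 to 0.66 and a median of 0.43, beside 50.6% of all genes above 0. Of these 10, 6 are the genes with close IDs, which moved together. The median of the 10 was 0.72 without B11 and 0.59 without B199. It was 0.31 without B6, 0.32 without B25, and 0.33 without B126 or B51. With scaling to the counts outside the 10 it was 0.30, where the median of all genes was -0.11 in place of 0.01. ENSBTAG00000011424.5 had the smallest p. Its levels were 16821 CPM in B199, 27669.6 in B25 and 24957 in B6 on high energy, against 19059 in B11, 16580.1 in B126 and 16337 in B51 on low energy. B199 lay below B11, so the groups overlapped. The log2 fold change was 0.42 (SE 0.28, edgeR adjusted p = 0.888).

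ENSBTAG00000022158.4 was the only 1 of the 10 whose CPM did not overlap between the diets in Bonsmara, a pattern that 8.68% of all genes showed in the same direction. It had 19274 CPM in B199, 22896 in B25 and 20131 in B6 on high energy, against 18419 in B11, 13628 in B126 and 13868 in B51 on low energy. B199 and B11 were the nearest pair. By share of counts, this gene and ENSBTAG00000011424.5 did not overlap, as did 4.18% of all genes in that direction. Its log2 fold change was 0.44 (SE 0.33, edgeR adjusted p = 0.888). Weighting stems by quality in limma gave 7 of 10 genes an unadjusted p under 0.05, beside 25.8% of all genes, with a lowest adjusted p of 0.125 for ENSBTAG00000022158.4.

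Between diets in Nguni, 5 estimates were above 0 and 5 below, beside 50.1% of all genes above 0, from -0.30 to 0.22 with a median of -0.08. The median was -0.50 without N11, -0.31 without N1 and 0.06 without N215. With limma and quality weights all 10 estimates were above 0, with a median of 0.20. ENSBTAG00000046332.1 had the smallest p, with 40398 CPM in N008, 38939 in N11, 34971 in N14, 54878 in N35 and 40090.0 in N37 on high energy. On low energy it had 33318 in N1, 27039 in N215 and 48119 in N33. N33 stood above 4 of the 5 high energy stems. The log2 fold change was 0.21 (SE 0.24, edgeR adjusted p = 1), and it was 0.05 without N215 and 0.48 without N33.

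The diet estimate in Nguni depended on where N1 and N11 were placed. With the tables' pairing, the median of the 10 genes was -0.88, and 6 of 10 had an unadjusted p under 0.05, beside 5.11% of all genes. These were the 6 genes with close IDs, which moved together from stem to stem. Their log2 fold changes were -1.15 (ENSBTAG00000043560.1) to -0.87 (ENSBTAG00000043577.1), each with an edgeR adjusted p of 0.835. N11 had the highest share of the 6 among the Nguni stems labelled high energy, 31.4%, and N1 the lowest among those labelled low energy, 17.9%. Which placement is right cannot be told from the sources used here.

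Between breeds on the high energy diet, the estimates for the 6 genes with close IDs were below 0 (Nguni minus Bonsmara, -0.86 to -0.65), and those of the other 4 were -0.01 to 0.26. In all 7 of 10 were below 0, beside 47.4% of all genes, and 6 of 10 with DESeq2's size factors. ENSBTAG00000043550.1 had the smallest p. Its levels were 19859.7 CPM in B199, 37962 in B25 and 42869 in B6, and 11146 in N008, 32649 in N11, 19168 in N14, 13239 in N35 and 16514 in N37. N11 was the 1 Nguni stem above B199, and the other 4 lay below all Bonsmara stems. The log2 fold change was -0.86 (SE 0.39, unadjusted p 0.0429, edgeR adjusted p = 0.557).

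This breed estimate leaned on single stems. For ENSBTAG00000043550.1 it was -1.14 without N11 and -0.61 without B6. The number of the 10 genes with an unadjusted p under 0.05 was 0 without B25, B6, N008, N14, N35 or N37. All genes reached it at 3.92%, 5.28%, 8.23%, 6.56%, 5.61% and 12.3% in that order. The number was 4 without B199, where 8.58% of all genes reached it, and 6 without N11, where 12.5% did. With limma and quality weights it was 4, beside 16.7% of all genes. With the tables' pairing the number was also 6, beside 10.3% of all genes, with a median over the 10 of -1.01. None of the 10 genes had an adjusted p under 0.05 in these fits.

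Between breeds on the low energy diet, 3 estimates were above 0 and 7 below, beside 52.8% of all genes above 0, and they ran from -0.18 to 0.67. This split turned with the stems and the scaling. The median of the 10, -0.02, was 0.38 without B11 (9 above 0), 0.20 without N1 (all 10 above 0), 0.07 without N008_3 and N215_2 (9 above 0), and 0.01 with DESeq2's size factors (7 above 0). With the tables' pairing it was 0.35, with all 10 above 0, and 1 of 10 had an unadjusted p under 0.05, beside 8.85% of all genes. With scaling to the counts outside the 10 it was -0.18, where the median of all genes was -0.13 in place of 0.03. ENSBTAG00000022158.4 had the smallest p. The 3 Nguni stems had 18512 CPM (N1), 15232 (N215) and 39133 (N33), and the Bonsmara stems had the 13628 to 18419 given above. N33 was more than 2 times any other stem of this comparison, and N215 lay within the Bonsmara range. The log2 fold change was 0.67 (SE 0.33, edgeR adjusted p = 0.956), and without N33 it was 0.14. By share of counts, ENSBTAG00000011424.5 did not overlap between the breeds on this diet, as did 2.79% of all genes in that direction, with 1.92% to 2.21% in Nguni and 1.73% to 1.91% in Bonsmara.

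**Figure D5:**
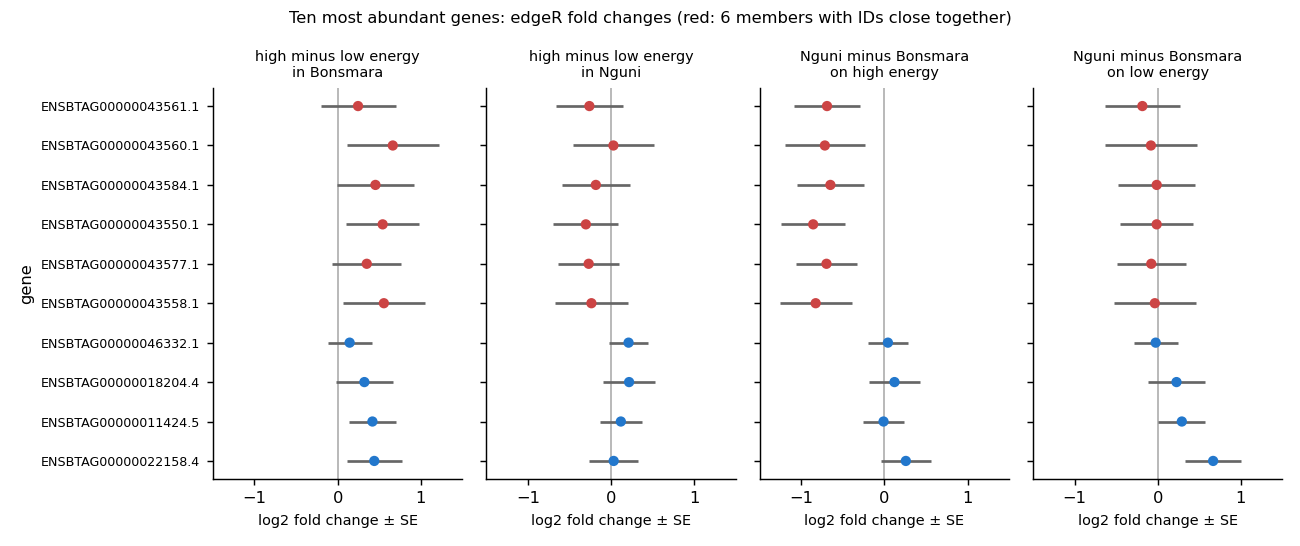
Log2 fold changes (horizontal, points) with their standard errors (lines) from edgeR for the 10 genes in the 4 comparisons between 2 groups, with the 6 genes with close IDs in red and the other 4 in blue. For breed on high energy the red points lie at -0.86 to -0.65 and the blue ones at -0.01 to 0.26, and no adjusted p is under 0.05 in any panel.

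The interaction, which is the diet effect in Nguni minus that in Bonsmara, was below 0 for 9 of the 10 genes, beside 51.3% of all genes, from -0.84 to 0.07 with a median of -0.56, which was -0.97 without B11 and -0.36 without N215 or B25. It was largest in size for ENSBTAG00000043550.1, at -0.84 (SE 0.59, edgeR adjusted p = 0.855), and ran from -1.27 without B11 to -0.61 without B6. With the tables' pairing the median was -1.22, and 6 of 10 genes had an unadjusted p under 0.05, beside 12.2% of all genes. Averaged over breeds, the diet estimates were above 0 for 9 of the 10 genes, beside 49.4% of all genes, and ran from -0.01 to 0.35 with a median of 0.17, and the tables' pairing turned the median to -0.20. Without N11, 5 were above 0 and 5 below, with a median of 0.04. All 10 were above 0 in some other fits, such as limma with quality weights (median 0.41) and edgeR without N33 (median 0.24). In these, 4 and 3 of the 10 had an unadjusted p under 0.05, beside 15.3% and 8.11% of all genes. With edgeR and all stems, the smallest p for diet averaged was that of ENSBTAG00000011424.5 (0.27, SE 0.19, edgeR adjusted p = 0.999). Averaged over diets, the 6 genes with close IDs were at -0.44 to -0.33 (Nguni minus Bonsmara) and the other 4 at 0.01 to 0.46, so that 6 of 10 were below 0, beside 45.9% of all genes. The smallest p there was that of ENSBTAG00000022158.4 (0.46, SE 0.22, edgeR adjusted p = 0.586), whose estimate was 0.21 without N33. The comparisons share stems, so they are not independent of each other.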

How the data were processed

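RNA of frozen Longissimus dorsi was extracted with TRIzol and made into libraries with the Illumina TruSeq RNA kit, per the labels' protocols. Salmon, Trimmomatic, FastQC and DESeq2 are listed per the submitters' processing notes. Not given in the sources used here: build, annotation and strand setting. The authors deposited 4 tables of estimated counts, whole as deposited (rounding moved none); 48 of the 54 values with at least 7 digits end in 0, so large values are stored with limited digits. Each of the 42 libraries stands in 2 tables with identical values and was taken once. Of 56 labelled samples, 14 were not analysed here. The cattle gene table given (37063 genes) matched 0 IDs, so the planned gene lists and cell type markers were not used.

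Counts were summed per stem and tested with edgeR 4.0.16 (R 4.3.3): filterByExpr with minimum count 10 (13219 genes), TMM, a robust quasi-likelihood fit of 4 group means (10 residual degrees of freedom), and Benjamini-Hochberg adjustment with a threshold of 0.05. Spread used log2 CPM with a prior count of 2. The fit and the variance components were tested on simulated data. Each comparison names its smallest-p gene when none was called, and likeness is given for the 6 genes with close IDs. Alternatives used DESeq2 1.42.0, limma 3.58.1, other scalings, no filter, fewer stems or libraries, and the tables' pairing. The 10 genes, the lists and the alternatives were chosen with earlier results of these data known.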

Additional observations from a re-analysis of the deposited data

How the results depend on the processing

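The count of the 10 genes with an adjusted p under 0.05 was 0 in all 7 comparisons under every alternative run: DESeq2, limma with quality weights, limma on libraries with the stem as a random block, DESeq2's size factors, scaling to the counts outside the 10, no filter, without N008_3 and N215_2, N1 and N11 placed as in the tables, and each stem left out. Fitting only the groups compared also gave 0; it was run for the 4 comparisons between 2 groups. The count was also 0 in all 7 with the title suffix as a replicate block. The suffixes number the 3 libraries of a stem and are not stated to pair samples across groups. Among all genes, limma with the stem as a random block called 44 of 11340 for breed on high energy. It called 16 for breed averaged, 1 for breed on low energy and 0 in the rest. With the suffix block these counts were 49, 15, 1 and 0. Without N37, edgeR called 1 of 13183 for breed on high energy and 1 for breed averaged. The remaining edgeR fits called 0 of all genes. The lowest adjusted p of any of the 10 under any alternative was 0.125. No fold change given for a smallest-p gene changed sign.

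With 1 stem left out, the mean joint share of the 10 genes was 38.0% to 42.6% in Bonsmara on high energy, 31.3% to 37.8% in Bonsmara on low energy, 29.4% to 32.8% in Nguni on high energy and 30.1% to 35.1% in Nguni on low energy. The number of genes with over 50% of their variance between stems, 2, was 1 to 3 with a stem left out, the 1 being without N008. The number of pairs with an adjusted p under 0.05, 15, was 15 to 21 with a stem left out (21 without B25) and 18 on log2 CPM, and the 15 pairs of genes with close IDs were among them each time, with r of at least 0.927.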
